A study of Mus musculus with 5 samples.

Results

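The WNT feedback target genes followed here were Axin2, Nkd1, Notum, Wif1, Dkk2, Apcdd1, Znrf3, Rnf43, Sp5 and Lef1, chosen by name as 10 of the 22146 genes listed over all libraries. Their raw UMI counts (unique molecular identifiers, 1 for each captured transcript) were read in every cell with at least 500 detected genes and at most 15% mitochondrial counts. All 10 genes had a UMI in each treated tumor library, whereas 9 had one in the normal library, which did not list Notum. The libraries came from inDrop droplet single-cell RNA sequencing of mouse colon and cover AOM/DSS tumors under chemotherapy and normal colon stroma. All 4 tumor libraries were labelled wild type, carried tumors induced with azoxymethane and dextran sodium sulfate, a model of inflammation-driven colorectal cancer, and were treated with 5FU plus Irinotecan, so no untreated tumor was among them. The early group was the 2 day 1 libraries, and the late group was the day 3 and day 6 libraries. The fifth library was an untreated normal colon, dissociated by a separate procedure that enriches stroma. Animals were of C57BL/6J or mixed C57BL/6J;129 background. According to the study's methods, the tumor procedure kept the epithelial fragments held back by a filter and discarded the flow-through. The labels give no age or animal for a single library. The study's methods count the days after treatment, with harvest following the last cycle, whereas its results speak of treatment for 1, 3 and 6 days.

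WNT ligands stabilise beta-catenin, which enters the nucleus and switches on target genes together with transcription factors of the TCF/LEF family. Several of those targets inhibit the same pathway, so that a cell with active signalling makes its own brakes: in the cytoplasm, at the membrane and as secreted proteins. In the intestine the pathway maintains stem cells at the crypt base, and mutations that stabilise beta-catenin drive tumors of the AOM/DSS kind.

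Because TCF/LEF factors bind the regulatory DNA of WNT targets, the upstream sequences of their start sites were searched for CTTTG followed by AA, AT, TA or TT on both strands, which are forms of the TCF/LEF motif. RefSeq promoter windows (GRCm38.p6, 250 bases before to 50 bases after the start) were at hand for 7 of the 10 genes and covered 11 start sites, while Notum, Znrf3 and Apcdd1 had no entry. A match was present in 2 of the 11 windows (Sp5 and Lef1), a share near the 16.9% of all 32851 mouse promoter windows. The 250 upstream bases of these windows are shown with the matched letters in capitals, beside the Axin2 window, shown because Axin2 is the gene against which likeness was measured. The Sp5 window, chr2:70474673-70474922 on the plus strand, held 2 matches. The first, AACAAAG, is the TT form on the minus strand and the other, CTTTGAT, is the AT form. Of all windows 1.94% held at least 2. The Lef1 window, chr3:131156044-131156293 on the plus strand, held TACAAAG, the TA form on the minus strand, and is 1 of 4 Lef1 start sites, lying inside the gene. The Axin2 window, chr11:108920099-108920348 on the plus strand, did not contain these letters.
Sp5: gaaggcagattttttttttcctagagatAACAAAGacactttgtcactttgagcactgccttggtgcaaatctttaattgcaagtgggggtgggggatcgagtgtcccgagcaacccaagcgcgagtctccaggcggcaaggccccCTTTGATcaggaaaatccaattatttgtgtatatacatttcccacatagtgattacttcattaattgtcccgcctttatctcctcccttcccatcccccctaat
Lef1: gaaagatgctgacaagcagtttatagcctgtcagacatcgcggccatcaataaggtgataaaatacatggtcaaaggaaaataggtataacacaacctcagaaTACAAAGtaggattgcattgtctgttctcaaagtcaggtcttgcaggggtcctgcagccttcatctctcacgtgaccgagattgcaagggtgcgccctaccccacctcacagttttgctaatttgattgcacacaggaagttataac
Axin2: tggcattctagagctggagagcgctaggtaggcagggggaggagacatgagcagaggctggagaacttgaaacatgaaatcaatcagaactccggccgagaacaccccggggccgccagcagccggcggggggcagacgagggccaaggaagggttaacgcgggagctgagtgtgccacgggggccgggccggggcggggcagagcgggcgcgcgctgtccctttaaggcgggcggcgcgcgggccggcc

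The libraries held 748, 2403, 1419 and 2826 kept cells in the tumor libraries, in the order day 1 replicate 1, then day 1 replicate 2, then day 3 and then day 6, and 1095 in the normal library, with medians of 2903 to 3601 UMIs per cell. Pairs of libraries shared 4 to 41 cell barcodes. Day 1 replicate 1 and day 3 were indexed singly, whereas day 1 replicate 2 and day 6 were indexed dually, so each group held 1 library of each kind. Cells were clustered without the WNT genes, and clusters were named from marker genes as columnar-like, squamous-like, fibroblast-like and so on. The suffix is dropped from here. Columnar cells, the gut-type epithelium, numbered 278, 1240, 907 and 1371 in the 4 tumor libraries in the order given above and 328 in the normal library. Squamous cells, a stratified keratin-rich epithelium, numbered 50, 187, 275 and 727. Fibroblasts numbered 14, 39, 30 and 56 in the tumors and 263 in the normal library. Different clusters held most of the columnar cells in different libraries, with 828 of 1371 day 6 cells in a Pigr and Car1 cluster and 635 of 907 day 3 cells in a Gpx2 cluster. Levels are given as CPM, the UMIs of a gene per 1000000 UMIs of a cell class in a library. Free RNA also gives UMIs in cells that do not make a gene, so neutrophils and macrophages, which should lack most of these genes, served as the background of each library.

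In tumor columnar cells each of the 10 genes was lower in both late libraries than in both day 1 libraries, as were 43.2% of all 14168 genes with at least 1 CPM. The plot of levels by cell class draws this class in its parts. Axin2, the scaffold of the beta-catenin destruction complex, stood at 218 CPM in day 1 replicate 1, 207 in day 1 replicate 2, 75.3 at day 3 and 16 at day 6. Nkd1, which binds Dishevelled in the cytoplasm, gave 384, 265, 46.0 and 14.1 CPM in the same order. For both cytoplasmic inhibitors the day 6 library was the lowest and the groups did not overlap. The secreted inhibitors followed. Notum, a carboxylesterase that strips the lipid from WNT ligands, gave 355, 238, 98.9 and 10.4 CPM. Wif1, which binds WNT ligands outside the cell, gave 894, 482, 89.5 and 9.11 CPM. The level of Wif1 averaged over the early libraries was 13.9 times its late average, the largest such ratio among the 10 genes. Dkk2, a ligand of the LRP5/6 coreceptors, gave 511, 576, 88.6 and 10.04 CPM, and was thus high in both day 1 libraries.

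The genes of the membrane were ordered likewise. Apcdd1, a membrane inhibitor of WNT receptors, was counted least, at 24.2, 34.2, 6.41 and 0.701 CPM. Znrf3 and Rnf43 encode ubiquitin ligases that remove Frizzled receptors from the cell surface. Znrf3 gave 256, 334, 55.9 and 26.9 CPM, and Rnf43 gave 411, 478, 151 and 41.6 CPM. For Rnf43 the average of the early libraries was 4.62 times that of the late ones, the smallest ratio of the list. The 2 transcription factors, Sp5, which represses TCF/LEF targets, and Lef1, a DNA-binding partner of beta-catenin, gave 105, 32.8, 23.6 and 2.69 CPM and 157, 142, 18.1 and 6.07 CPM. In Sp5 the gap between day 1 replicate 2 and day 3 was small, whereas in Lef1 the day 1 libraries lay far above both late libraries.

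**Figure D1:**
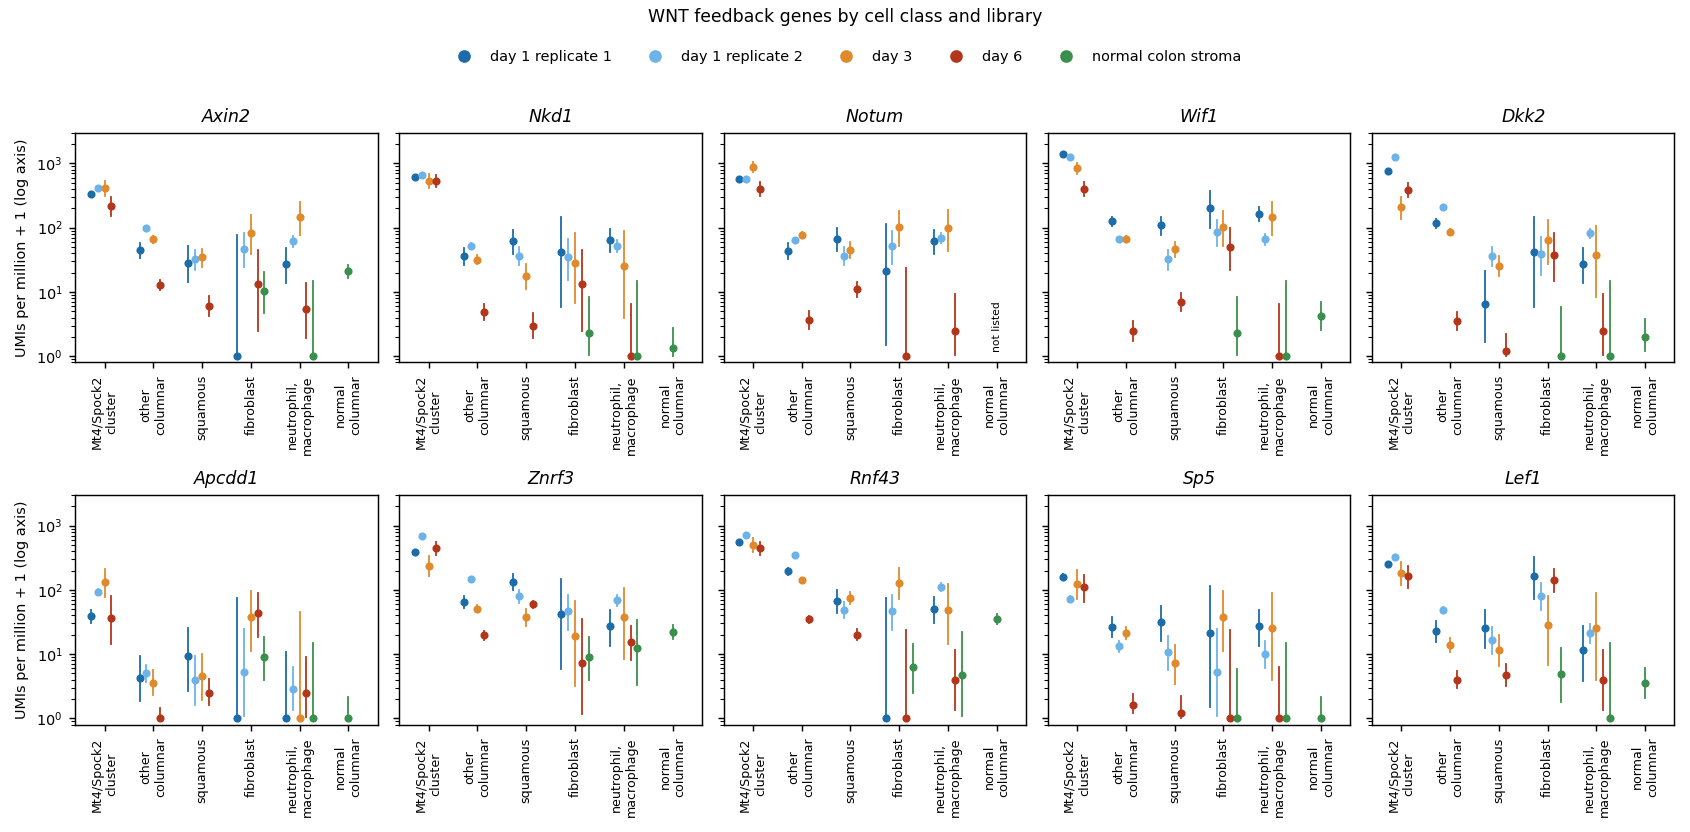
Level of each gene as CPM plus 1 (log axis) in each cell class, with 1 point per library coloured by library and bars for the exact 95% Poisson interval of the count. The Mt4 and Spock2 cluster, a part of the columnar class described later, lies highest within each library for all 10 genes except Apcdd1 at day 6, where fibroblasts lie higher, and normal columnar cells are drawn at the right end.

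The question of a change with time was then put to sums of counts per library with edgeR's quasi-likelihood test (TMM scaling, Benjamini-Hochberg adjustment over all genes tested). Late minus early, the fitted log2 differences of the 10 genes in columnar cells ran from -3.45 for Wif1 to -1.83 for Rnf43, with a median of -2.59 against 0.02 for all 13541 genes tested. None of the 10 passed an adjusted p of 0.05, and neither did any other gene, so that the share called was 0%. Without adjustment 8 of the 10 had p under 0.05, as had 17.0% of all genes (2296). Lef1 differed by -3.26 (SE 0.56, adjusted p = 0.167), Znrf3 by -2.44 (SE 0.45, adjusted p = 0.184) and Nkd1 by -3.06 (SE 0.61, adjusted p = 0.187). Sp5 had the weakest support, at -2.05 (SE 1.01, adjusted p = 0.357). The call depended on the tool and the design. DESeq2 called 680 of the same 13541 genes (5.02%), among them Nkd1, Wif1, Dkk2, Apcdd1, Znrf3 and Lef1. With index structure as a block, edgeR called 198 genes (1.46%), among them Nkd1, Wif1, Znrf3 and Lef1. In the late group this block coincides with the day, so it can also take up a difference between day 3 and day 6. Leaving out day 3 raised the number of genes of the list that were called to 10, with log2 differences down to -5.77, where 12.1% of 14820 genes were called. Leaving out day 6 raised it to 5, where 4.43% of 13465 were. Each of these fits has a single late library, which is assumed to vary as the day 1 pair does. The labels do not tie libraries to animals, so the p-values measure the spread between these libraries. In the late group that spread includes any difference between day 3 and day 6, neither of which was replicated. Within the singly indexed pair, late minus early ran from -2.97 to -1.11, and within the dually indexed pair from -5.24 to -2.78.

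**Figure D2:**
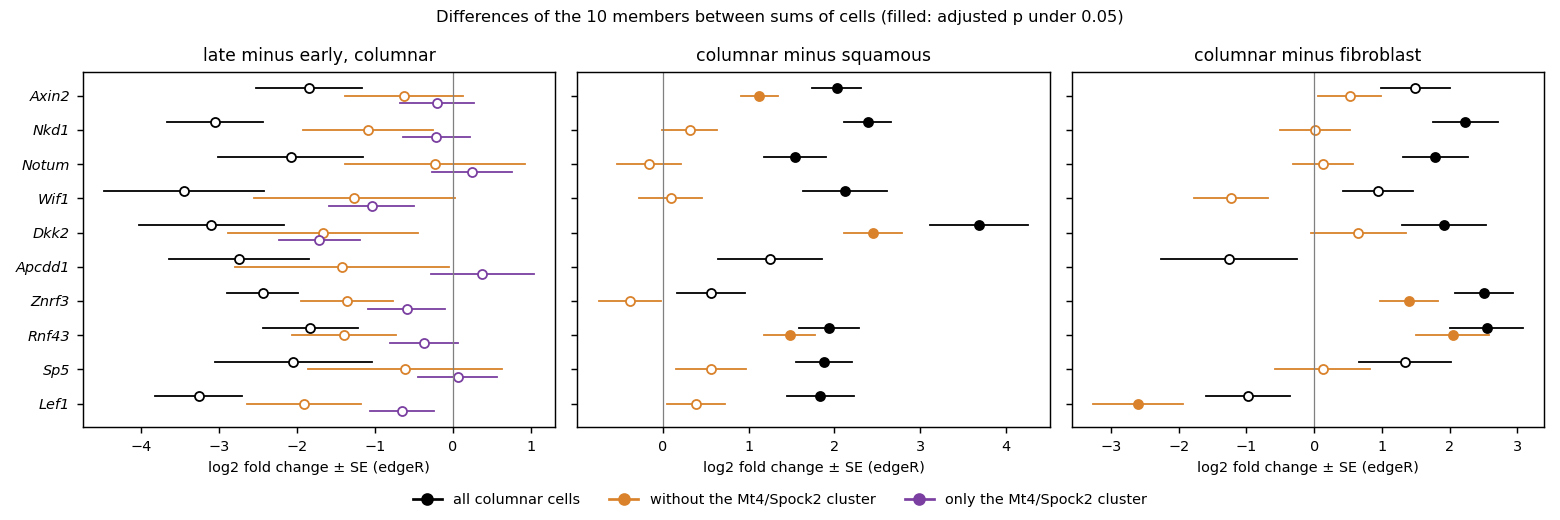
Fitted log2 differences of the 10 genes (edgeR, bars for the standard error) for late minus early in columnar cells and for columnar minus squamous and columnar minus fibroblast cells within libraries, with all columnar cells in black, without the Mt4 and Spock2 cluster in orange and with the cluster alone in purple. Filled points passed an adjusted p of 0.05, and the black late minus early points lie between -3.45 and -1.83 without passing it.

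Most of the columnar UMIs of these genes came from a single cluster of 517 cells. Its leading genes were Mt4, Spock2, Mdga2, Cadps and Pnliprp2, followed by Wif1 and Nkd1, although no gene of the list was used to build the clusters. It was counted as columnar on 3 of the 10 listed columnar markers, the fewest that the naming rule allowed. The mean log2 fold of the 10 markers against non-epithelial cells was 0.019, where the rule asked for a positive mean. The cluster is therefore called here by its leading genes. At the finer resolution of 2, a cluster of 170 cells that was also led by Mt4 had 2 such markers and stayed unnamed. The Mt4 and Spock2 cluster made up 55.4% (exact 95% interval 49.3 to 61.3) of columnar cells in day 1 replicate 1 and 26.2% (23.8 to 28.8) in day 1 replicate 2. At day 3 it made up 2.54% (1.61 to 3.78) and at day 6 1.09% (0.614 to 1.80), or 23 and 15 cells. It held 91.9%, 75.4%, 18.5% and 44.1% of the columnar UMIs of the 10 genes in the 4 libraries, while holding 60.0%, 34.5%, 2.98% and 1.94% of all columnar UMIs. Its cells were deep, with median UMIs of 9247.5, 10945, 5852 and 9265 against 5479, 4652, 3032 and 2048.5 in the other columnar cells, and 41 of the 517 were among the 6% of cells with the highest doublet scores. The share of a cluster in a library also depends on how its tissue was cut and dissociated, and the part of that here was not tested.

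Within this cluster the 10 genes stayed high in every library. Summed over the list, the level was 5075 and 6089 CPM on day 1, 4054 at day 3 and 3131 at day 6. The other columnar cells gave 672, 1049, 549 and 78.4 CPM, against the 453, 534, 580 and 29.2 CPM of neutrophils and macrophages. Outside the cluster day 3 did not exceed that background, which rests there on 32 cells. Axin2 in the cluster gave 334, 417, 408 and 217 CPM, so that its day 3 library lay between the day 1 libraries. Nkd1 gave 616, 670, 538 and 530 CPM, with all 4 libraries within a narrow band. Notum reached its highest level, 877 CPM, at day 3, against 563 and 571 on day 1 and 403 at day 6. Wif1 gave 1406, 1274, 846 and 397 CPM, and Dkk2 774, 1272, 208 and 391 CPM. These 2 secreted inhibitors were thus lower in both late libraries within the cluster too. Apcdd1 gave 38.1, 91.6, 131 and 36.1 CPM, and did not separate the groups. Znrf3 (384, 689, 238 and 446 CPM) had its groups overlap as well. Rnf43 gave 555, 714, 500 and 440 CPM and Lef1 gave 248, 320, 185 and 163 CPM, with late below early. Sp5 gave 157, 71.8, 123 and 108 CPM, where the lowest library was day 1 replicate 2. In all, 5 of the 10 genes had both late libraries below both early ones in the cluster, against 25.6% of 14189 genes. The late levels rest on 23 and 15 cells.

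**Figure D3:**
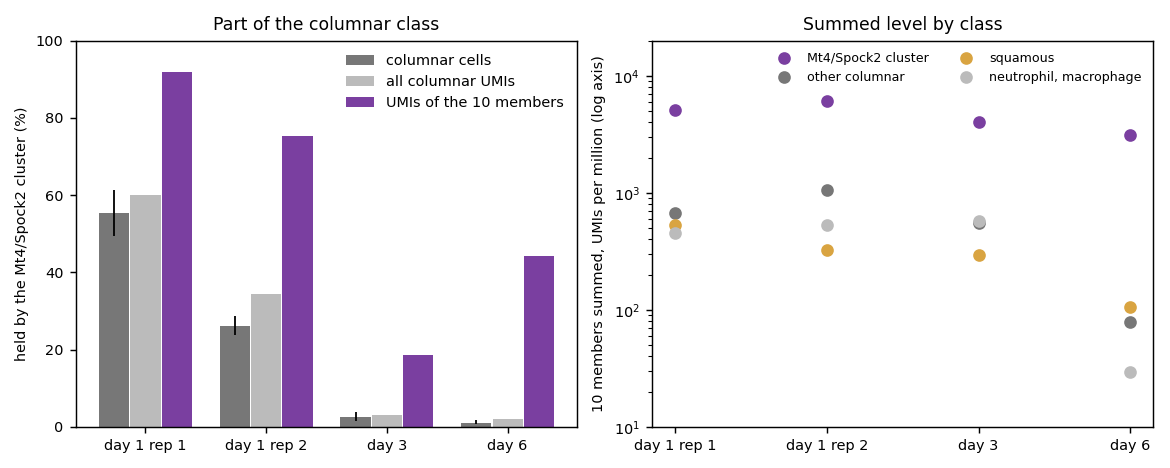
On the left, the percentage of columnar cells (with exact 95% intervals), of columnar UMIs and of columnar UMIs of the 10 genes held by the Mt4 and Spock2 cluster in each tumor library, and on the right the summed level of the 10 genes in CPM (log axis) by cell class. The cluster held 55.4% and 26.2% of columnar cells on day 1 and 2.54% and 1.09% at day 3 and day 6, while its summed level stayed between 3131 and 6089 CPM.

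Set against the other columnar cells of the same library, the cluster was higher for 10 of the 10 genes in all 4 libraries, where 31.1% of the 9679 genes with a mean of at least 10 CPM were. The median difference in log2(CPM + 1) was 3.18 over the 10 genes and 0.17 over all genes. Apcdd1 stood 13th of the 9679 genes by this difference, Nkd1 30th, Wif1 38th, Notum 70th and Lef1 73rd, and the last of the list, Rnf43, stood 461st. Other WNT genes were less uniform. Of 15 other WNT targets, 7 were higher and 2 lower in all 4 libraries (median 0.26). Among the higher ones were Prox1 at 3.29, Tnfrsf19 at 3.16 and the stem cell receptor Lgr5 at 1.99. The 2 lower ones were Cdx1 at -1.43 and Cd44 at -1.17, and Ascl2, at 0.28, was higher in 2 of the 4 libraries. Of 16 transducers 10 were higher and 2 lower (median 0.65), with Tcf7 at 1.34. Of 8 measured receptors and coreceptors 1 was higher and 3 were lower (median 0.19). Among 3 measured inhibitors outside the list, Dkk3 was higher by 5.09. Of the 10 columnar markers 0 were higher and 9 were lower in all 4 libraries, against 16.4% of all genes, with Cdx2, a transcription factor of intestinal identity, at -2.19 and Krt20, a keratin of mature colonocytes, at -2.77. Vim, a filament gene of mesenchymal cells, gave 1817, 854, 1939 and 620 CPM in the cluster against 118, 50.7, 131 and 20.7 CPM in the other columnar cells, and the epithelial cadherin Cdh1 was lower in all 4 libraries (median -0.70). The clusters were built on the genes of these same cells, so the differences are a description without a test.

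To take depth out, each cell was thinned to 1000 UMIs, and the number of the 10 genes with a UMI was counted per cell. At least 3 of the 10 were found in 67.5%, 80%, 69.6% and 40.0% of the cluster's cells in the 4 libraries. In the other columnar cells this share was 2.42%, 10.5%, 2.60% and 0.0814%. Neutrophils and macrophages gave 2.59%, 1.31%, 3.13% and 0%, the last being 0 of 172 cells. Outside the cluster, the share was therefore above that background in day 1 replicate 2 and near it elsewhere. Before thinning the shares were 98.7%, 99.1%, 100% and 93.3% in the cluster, at median depths of 5852 to 10945 UMIs. They were 45.2%, 49.5%, 23.6% and 2.36% in the other columnar cells, and 11.2%, 12.4%, 9.38% and 0% in neutrophils and macrophages, whose median depths ran from 2068 to 3280.5 UMIs. The cluster's cells carried on average 3.18, 3.72, 2.91 and 2.27 of the 10 genes at the fixed depth.

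**Figure D4:**
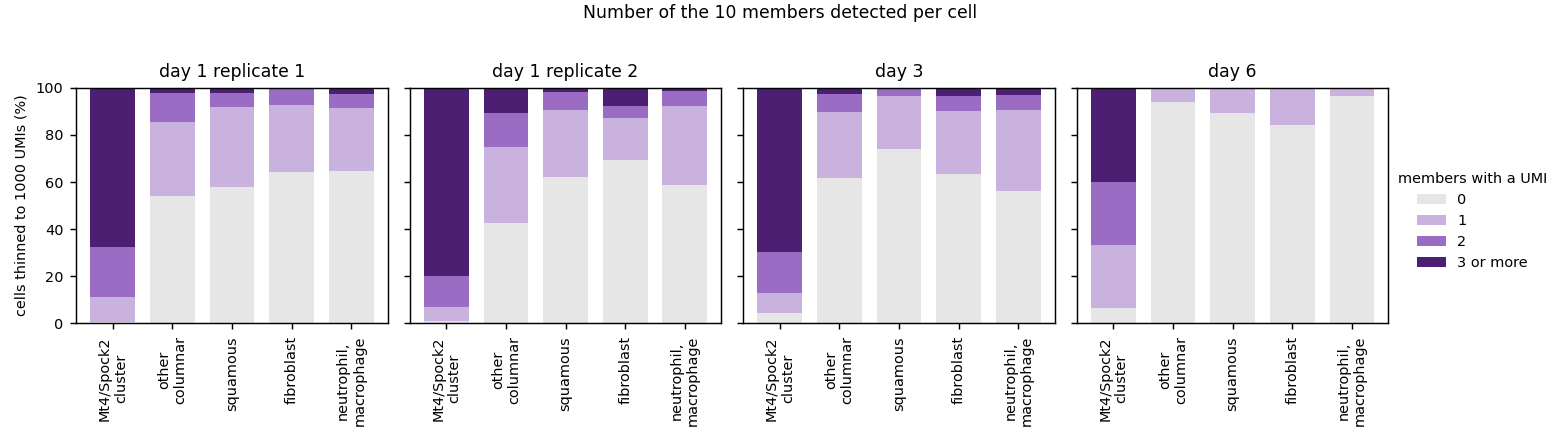
Percentage of cells with 0, 1, 2 or at least 3 of the 10 genes detected once each cell was thinned to 1000 UMIs, by cell class, with 1 panel per tumor library. Between 40.0% and 80% of the Mt4 and Spock2 cells had 3 or more, against at most 10.5% of the other columnar cells.

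Without the cluster, which was left out as an added choice with the data in view, the differences over time were smaller. The other columnar cells gave 43.5, 96.8, 65.1 and 12.03 CPM of Axin2, 64.5, 147, 50.3 and 18.6 CPM of Znrf3 and 195, 353, 140 and 33.7 CPM of Rnf43. Day 6 was again the lowest, whereas day 3 lay between the day 1 libraries for Axin2. In these cells 6 of the 10 genes had both late libraries below both early ones, against 32.4% of 13815 genes. By edgeR the median late minus early difference was -1.31, with 0 of 12855 genes called (0%), and of the list only Lef1 had an unadjusted p under 0.05, at a log2 difference of -1.91, as had 6.22% of all genes. Within the cluster alone the median difference was -0.29, with 7 genes lower and 3 higher, and 2 of 10058 genes were called (0.0199%), neither of them in the list. Dkk2 had the lowest p of the list there, at a log2 difference of -1.71. Against neutrophils and macrophages of the same library, the intervals of the other columnar cells lay above the background for 3, 5, 1 and 1 of the 10 genes, overlapped it for 7, 5, 7 and 9, and lay below it for 2 genes at day 3. Low levels outside the cluster are therefore read with that background in mind. At day 3, for instance, the 32 neutrophils and macrophages showed 145 CPM of Axin2 and 145 CPM of Wif1.

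Squamous cells carried less of most of these genes than columnar cells of the same library. Axin2 in squamous cells gave 27.6, 31.0, 33.6 and 5.01 CPM, and Nkd1 60.7, 35.9, 16.8 and 1.96 CPM. Notum gave 66.2, 35.9, 44.2 and 10.01 CPM, Wif1 108, 31.0, 45.1 and 6.09 CPM, and Dkk2 5.52, 34.9, 24.7 and 0.218 CPM. All of these stayed below the columnar level in each library, by a narrow margin for Notum at day 6. Sp5, at 0.218 to 30.4 CPM, and Lef1, at 3.70 to 24.8 CPM, also stayed below it. Apcdd1 gave 8.28, 2.91, 3.54 and 1.52 CPM, and at day 6 lay above the 0.701 CPM of columnar cells, on 7 and 6 UMIs with intervals that overlap. Znrf3 was higher in squamous cells at day 6 as well, at 58.3 CPM against 26.9 in columnar cells, after 132, 78.6 and 37.1 CPM in the earlier libraries. Rnf43, its relative, gave 66.2, 47.5, 73.4 and 19.2 CPM and stayed below the columnar level throughout. With the library as a term in edgeR, 8 of the 10 genes were higher in columnar cells at an adjusted p under 0.05, where 8.96% of all 12271 genes tested were called higher and 16.6% were called in either direction. The difference was largest for Dkk2 (log2 3.69, SE 0.57, adjusted p = 0.00404), followed by Nkd1 (2.39, SE 0.27, adjusted p = 0.00117), Wif1 (2.12, SE 0.49, adjusted p = 0.0201) and Axin2 (2.03, SE 0.29, adjusted p = 0.00287). Rnf43 (1.94), Sp5 (1.88), Lef1 (1.84) and Notum (1.54) also passed. Apcdd1, at 1.25 (adjusted p = 0.215), and Znrf3, at 0.57 (adjusted p = 0.404), did not.

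The count was lower without the Mt4 and Spock2 cluster. There 3 of 9 genes tested were higher in columnar cells, where 11.3% of 11539 genes were called higher and 21.8% in either direction. These were Dkk2 (2.45, adjusted p = 0.00135), Axin2 (1.12, adjusted p = 0.00575) and Rnf43 (1.48, adjusted p = 0.00747), and the median of the 9 was 0.39 against 1.91 with the cluster. Notum and Znrf3 then had the opposite sign, at -0.16 and -0.38. The squamous levels themselves overlapped the neutrophil and macrophage background for 9, 5, 8 and 8 of the 10 genes in the 4 libraries, lay above it for 1, 0, 0 and 2, and below it for the rest.

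No change over time was called in squamous cells. There 9 of the genes could be tested, and all had negative late minus early differences, with a median of -0.96, but 0 of 9732 genes were called (0%) and 387 (3.98%) had an unadjusted p under 0.05. Nkd1 was the single gene of the list with such a p (log2 difference -2.36, SE 0.90, adjusted p = 1.00 by edgeR), and 4 of the 10 genes had both late libraries below both early ones, against 20.4% of 14028 genes. Whether the time difference itself was unequal between the classes was tested as an interaction. None of the 10 genes was called, among 4 of 13484 genes that were (0.0297%), while 7 had an unadjusted p under 0.05, as had 9.81% of all genes, and the median was -1.65. Wif1 came nearest (-2.42, adjusted p = 0.101), and DESeq2 called it among 80 of the 13484 (0.593%). Leaving out day 3 brought 5 genes of the list past the threshold, where 6.84% of 14407 genes passed, and leaving out day 6 brought 3, where 1.42% of 12932 did. A single late library was left in each.

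In tumor fibroblasts the counts were small, at 0 to 23 UMIs for a gene in a library. Lef1 gave 163, 79.9, 27.6 and 142 CPM (8, 19, 3 and 23 UMIs), and at day 6 it was far above the 6.07 CPM of columnar cells. Wif1 gave 204, 84.2, 101 and 49.4 CPM, where neutrophils and macrophages had 165, 65.5, 145 and 0 CPM. The exact intervals of Wif1 overlapped that background in both day 1 libraries and at day 3, and lay above it at day 6. Those of Lef1 overlapped it at day 3 and lay above it in the other libraries. Apcdd1 rested on 0, 1, 4 and 7 UMIs, and its 43.2 CPM at day 6 stood against 0.701 in columnar cells of that library. Lef1 and Wif1 were the only members with enough counts for the test over time, and gave late minus early differences of -0.23 and -0.73 with 0 of 3333 genes called (0%) and 269 (8.07%) with an unadjusted p under 0.05. DESeq2 called 11 of them (0.330%), with neither of the pair among these. Columnar minus fibroblast within libraries, 5 genes of the list were higher, where 6.21% of 10978 genes were called higher and 14.5% in either direction. They were Rnf43 (log2 2.54, SE 0.54, adjusted p = 0.00169), Znrf3 (2.50, SE 0.42, adjusted p = 0.000172), Nkd1 (2.23, SE 0.48, adjusted p = 0.00209), Dkk2 (1.91, SE 0.62, adjusted p = 0.0411) and Notum (1.79, SE 0.48, adjusted p = 0.0127). Axin2 (1.49, adjusted p = 0.0533), Sp5 (1.34), Wif1 (0.94), Lef1 (-0.97) and Apcdd1 (-1.26) did not pass. Without the cluster Lef1 was lower in columnar cells than in fibroblasts (-2.60, adjusted p = 0.0112), and Rnf43 (2.04) and Znrf3 (1.40) remained higher, where 17.6% of 8697 genes were called and 7.80% were called higher. The number of genes of the list called fell to 2 without day 1 replicate 1, where 10.5% of 11541 genes were called, and rose to 8 without day 3, where 17.8% of 11189 were.

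The rest of the pathway was described with a further list. This list of 58 WNT genes held receptors, transducers, inhibitors and other targets. Over time 0 of the 50 that could be tested in columnar cells were called, with medians of 0.01 for 16 transducers, -0.16 for 15 targets, 0.02 for 14 receptors and coreceptors and 0.85 for 5 inhibitors. Between columnar and squamous cells, 6 of the 15 targets were higher and 1 lower in columnar cells, 0 of 6 inhibitors were higher and 5 lower, 2 of 14 receptors were higher and 3 lower, and 1 of 16 transducers was higher. Those with the smallest adjusted p were Sostdc1, a secreted antagonist of BMP and WNT (-4.86, adjusted p = 0.000913), the homeobox gene Prox1 (2.52, adjusted p = 0.00134) and the receptor Fzd6 (-1.91, adjusted p = 0.00143). The ion cotransporter Slc12a2 (1.25, adjusted p = 0.00265) and Nkd2 (-3.15, adjusted p = 0.00373) came next. Nkd2, the paralog of Nkd1, was thus higher in squamous cells where Nkd1 was higher in columnar cells. Against fibroblasts, 6 of 15 targets were higher and 1 lower in columnar cells and 5 of 6 inhibitors were lower, with the secreted Frizzled-related proteins Sfrp1 at -4.70 (adjusted p = 5.28e-07) and Frzb at -4.99 (adjusted p = 0.000274).

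Levels of the 10 genes were then compared cell by cell. Correlations were computed over columnar cells of each library on log counts per 10000, where all genes share the cell's depth, so they are given as descriptions. The median over the 45 pairs was 0.367, 0.377, 0.174 and 0.308 in the 4 libraries (278, 1240, 907 and 1371 cells), and all 45 were positive in each. Nkd1 with Wif1, a cytoplasmic and a secreted inhibitor, gave 0.529, 0.651, 0.377 and 0.528. Nkd1 with Notum gave 0.574, 0.592, 0.381 and 0.480. These pairs were high in every library, whereas Apcdd1 with Sp5, which had the lowest mean levels of the list, gave 0.0612, 0.133, 0.00307 and 0.308. The mean of the library medians was 0.306 (SD 0.0933, n = 4). With each cell thinned to 1000 UMIs it was 0.107, without the Mt4 and Spock2 cluster 0.125 and within the cluster alone 0.0674. Each of these was below the value over all columnar cells, and within the cluster 26 to 34 of the 45 pairs were positive. At the fixed depth no cell held more than 8 of the 10 genes, and 24.5%, 31.7%, 60.4% and 92.9% of columnar cells held none. Znrf3 with Rnf43, the paired ubiquitin ligases, kept 0.365, 0.513, 0.208 and 0.236 without the cluster, and 0.170, 0.243, 0.0682 and 0.197 in thinned cells.

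**Figure D5:**
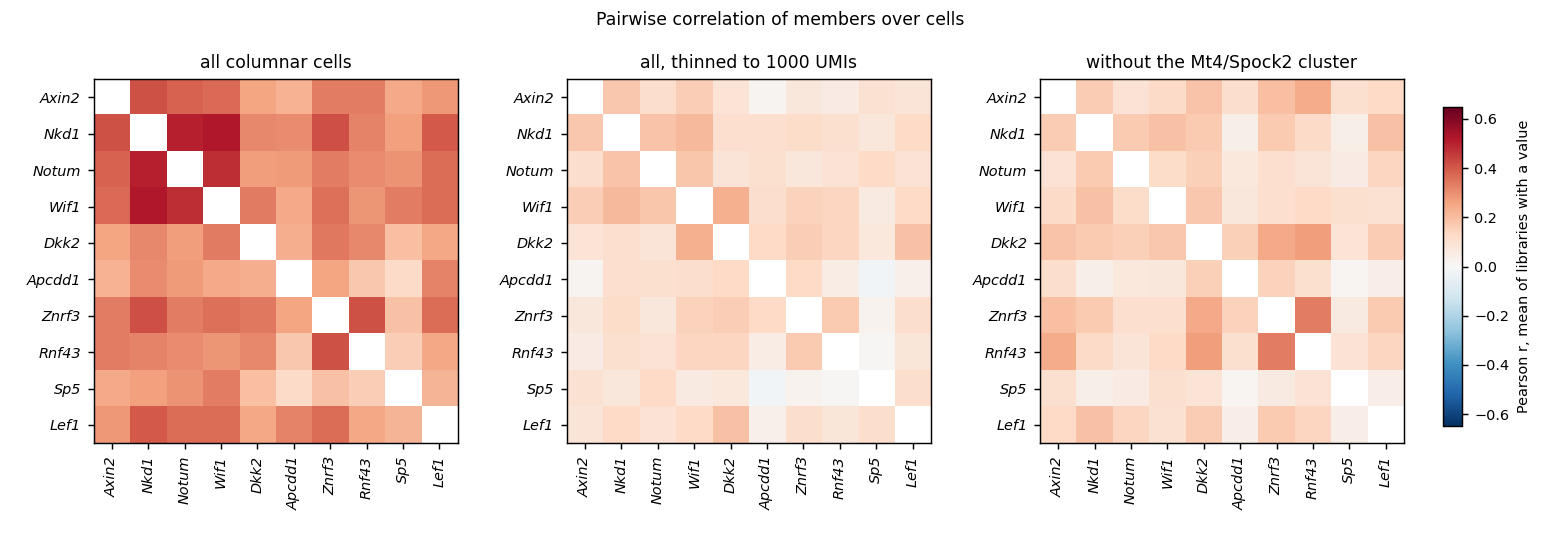
Pearson correlations between the 10 genes over columnar cells, averaged over the tumor libraries that give a value, for all columnar cells, for all cells thinned to 1000 UMIs and without the Mt4 and Spock2 cluster. The colour runs from blue (negative) to red (positive), and the mean of the library medians was 0.306, 0.107 and 0.125 in the 3 panels.

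Among 7713 genes with a UMI in at least 5% of columnar cells of each library, those most like Axin2 by the mean correlation over the 4 libraries were Tenm4 (0.357), Rnf32 (0.337), Znrf3 (0.335), Rnf43 (0.332), Mdga2 (0.325), Tcf4 (0.319), Gpcpd1 (0.316), Smoc2 (0.315), Arhgef26 (0.315) and Mgp (0.308). The median of all those genes was 0.0424. Of this top 10, 2 were of the feedback list, and Mdga2 was a leading gene of the Mt4 and Spock2 cluster. Nkd1 (0.411), Notum (0.381) and Wif1 (0.368) exceeded every one of the 7713 genes but did not reach the 5% limit in every library, and so stood outside the ranking. Lef1 (0.283), Dkk2 (0.254), Sp5 (0.244) and Apcdd1 (0.224) also missed the 5% limit, and were exceeded by 14, 33, 36 and 50 genes. Other genes below the limit were not compared with Axin2. The cluster was 2.54% of columnar cells at day 3 and 1.09% at day 6, so its cells alone could not bring a gene past the limit. How these genes stand among other genes of so few cells was not tested.

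Normal columnar cells, from the untreated stroma-enriched library, had little of most of these genes. Axin2 was counted 62 times (19.9 CPM, exact 95% interval 15.3 to 25.5), Znrf3 66 times (21.2 CPM) and Rnf43 108 times (34.7 CPM). Wif1 was counted 10 times (3.21 CPM), Lef1 8 times (2.57 CPM), Dkk2 3 times (0.963 CPM) and Nkd1 once (0.321 CPM). Apcdd1 and Sp5 had 0 UMIs and were set against a floor of 0.963 CPM (3 counts in 328 cells). The exact 95% interval of a count of 0 reaches above that floor. The intracellular scaffold and the ubiquitin ligases were thus readily counted in normal epithelium, whereas Wif1 and Dkk2, the secreted inhibitors listed there, were counted 10 times or fewer. By the observed levels, 8 of the 9 genes listed were below all 4 treated libraries, as were 30.3% of 14017 genes, while Axin2 at day 6, with 16 CPM, lay below the normal level. For Apcdd1 the floor of 0.963 CPM lay above the 0.701 CPM of day 6, so its order there was not detectable. The exact intervals were clear of all 4 libraries for Nkd1, Wif1, Dkk2 and Sp5, and those of Znrf3, Rnf43 and Lef1 overlapped the day 6 ones. The average of the day 1 libraries was 10.7 times (counting interval 8.33 to 13.9) the normal level for Axin2, 13.9 times for Znrf3 and 12.8 times for Rnf43. It was 58.2 times for Lef1, 214 times (117 to 447) for Wif1, 564 times (193 to 2736) for Dkk2 and 1010 times (181 to 39894) for Nkd1. Against the floor of 3 counts it was 30.3-fold higher for Apcdd1 and 71.4-fold higher for Sp5, given without an interval. These ratios were smaller without the Mt4 and Spock2 cluster, where the day 1 average was 3.53 times the normal level for Axin2, 4.99 for Znrf3, 7.91 for Rnf43 and 13.5 for Lef1. Without it the ratio was 29.4 (16.01 to 61.4) for Wif1, 169 (57.9 to 820) for Dkk2 and 134 (24.1 to 5300) for Nkd1. Against the floor of 3 counts the ratio without the cluster was 3.76 for Apcdd1 and 19.7 for Sp5. In those cells the day 1 levels of Nkd1, Wif1, Apcdd1 and Sp5 overlapped the neutrophil and macrophage background. At day 6 the cells outside the cluster had no UMI of Apcdd1. Their observed levels of Axin2 (12.03 CPM), Wif1 (1.43 CPM), Znrf3 (18.6 CPM) and Rnf43 (33.7 CPM) were below the normal ones. The exact intervals overlapped the normal ones for Wif1, Znrf3 and Rnf43, but not for Axin2. By the observed levels 4 of the 9 genes were then below all 4 treated libraries, against 29.1% of 13691 genes, and of these 4 Nkd1 alone had intervals clear of them. With a single normal library there is no test, and tissue, treatment and dissociation cannot be told apart here.

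Normal columnar cells fell into a cluster of 193 cells led by Tgm3 and Car1 and a cluster of 135 cells led by Clca3b, with Top2a among its leading genes. Axin2 gave 4.89 CPM in the first and 36.5 CPM in the second, and Lef1 gave 0.611 and 4.73 CPM. Znrf3 gave 13.4 and 29.8 CPM and Rnf43 25.1 and 45.3 CPM. These genes were higher in the Top2a-holding cluster, Lef1 on 1 and 7 UMIs, and the ratio was larger for Axin2 than for the ubiquitin ligases. Wif1 (4.89 and 1.35 CPM, on 8 and 2 UMIs) and Dkk2 (1.22 and 0.676 CPM, on 2 and 1 UMIs) were lower there. Nkd1 had 0 and 1 UMIs, and Apcdd1 and Sp5 had 0 in both clusters. None of 321 thinned normal columnar cells held 3 or more of the list, and 91.6% held none. Normal fibroblasts had 9.26 CPM of Axin2, 7.94 of Apcdd1 and 3.97 of Lef1.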

How the data were processed

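The authors deposited raw UMI counts per cell and gene, made with dropEst on mouse GRCm38, and no normalised values. From 752, 2450, 1419, 2830 and 1108 barcodes (total UMIs 5132360, 16904947, 6659486, 16079367 and 5814641) the cells passing the filters were clustered with scanpy 1.11.5 and leidenalg 0.10.2 on 2000 variable genes, 20 principal components and 20 neighbours at resolution 1, with the feedback and other WNT genes left out. A cluster took the class with the highest mean log2 fold of its markers, given a mean of at least 1. It also needed at least 3 markers with a UMI in 10% of cells and 2-fold higher CPM. Clusters left unnamed could be named columnar or squamous at 1.25-fold against non-epithelial cells, given a positive mean. Scrublet called 19 of 8491 cells, too few to use, so doublets were kept and the 6% with the highest scores were removed as an alternative. Counts were summed per library and class of at least 10 cells and tested with edgeR 4.0.16 (quasi-likelihood, TMM) or DESeq2 1.42.0 in R 4.3.3, two-sided, after tests on simulated data. Comparisons of classes had the library as a term. Each fit covered every gene that passed edgeR's filter on low counts. Intervals are exact 95% Poisson or binomial intervals and cover counting error only. All 10 genes of the list are named, together with the 5 other WNT genes of smallest adjusted p and the 10 genes most like Axin2. The genes, lists and tests were chosen with earlier results of these data known.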

Additional observations from a re-analysis of the deposited data

Results flagged for a closer look

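Some of these genes were counted outside the compared classes, with an exact 95% interval above both the neutrophil and macrophage level and the columnar level of the same library. Lef1 stood at 309 CPM in T cells of day 1 replicate 2 (22 UMIs, in 7 of 26 cells) and at 76.9 CPM in T cells of day 6 (26 UMIs, in 18 of 158 cells), where neutrophils and macrophages of day 6 had 2.92 CPM. Lef1 is a known transcription factor of T cells. In enteroendocrine cells of day 1 replicate 2 Lef1 stood at 218 CPM (38 UMIs, in 8 of 15 cells), and Wif1 stood at 35.6 CPM in those of day 6 (10 UMIs, in 6 of 41 cells).

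Dkk2 stood at 215 CPM in endothelial cells of day 6 (12 UMIs, in 3 of 15 cells). Znrf3 stood at 57.1 CPM in plasma cells of day 6 (38 UMIs, in 19 of 152 cells) and at 68.9 CPM in plasma cells of the normal library (15 UMIs, in 9 of 34 cells), against 26.9 and 21.2 CPM in columnar cells. In the normal stroma, Nkd1 stood at 141 CPM in myofibroblasts (29 UMIs, in 17 of 74 cells) and at 104 CPM in pericytes (7 UMIs, in 4 of 25 cells), where columnar cells had 0.321 CPM. Wif1 and Dkk2 stood at 64.8 CPM (17 UMIs, in 11 of 102 cells) and 34.3 CPM (9 UMIs, in 2 of 102 cells) in telocytes, the subepithelial Pdgfra-positive cells of the colon.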

How the results depend on the processing

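No paired analysis was possible because the labels number the day 1 libraries only, so no replicate number joins an early to a late library. Index structure, of which each group held both kinds, served as a block instead. With 2 libraries a group, calls over time depended on the tool and on single libraries. In columnar cells DESeq2 called 6 of the 10 genes (680 of all genes), no filter on low counts 10 (1168) and the index structure as a block 4 (198), against 0 (0), and leaving out 1 library gave 0 to 10 (2 to 1798). In squamous cells these gave 21, 96 and 22 of all genes, and leaving out 1 library gave 0 to 1 of the list and 0 to 43 of all genes. In fibroblasts DESeq2 called 11 genes and no filter 44, and leaving out 1 library gave 3 to 175. For columnar minus squamous cells, leaving out 1 library gave 4 to 10 of the list (1130 to 1645 genes), thinned cells called 871 genes and no filter 3051. For columnar minus fibroblast cells, resolution 2 called 3 of the list, leaving out 1 library 2 to 8, and no filter 2458 genes. The interaction gave 1 (80) by DESeq2, 6 (400) with no filter and 0 to 5 (0 to 985) without 1 library. The cause of these differences was not tested.

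Leaving out the Mt4 and Spock2 cluster, or keeping it alone, was added after seeing the data. Without it 3 of the list were called against squamous cells and 3 against fibroblasts, and 0 genes in the interaction, while the cluster alone gave 2 genes over time. Without it the sign turned for Notum (-0.16) and Znrf3 (-0.38) against squamous cells, Wif1 (-1.23) against fibroblasts and Nkd1 in the interaction (1.14). Within it Apcdd1 (0.38), Notum (0.24) and Sp5 (0.061) were higher late. The mean correlation went from 0.306 to 0.125 without the cluster, 0.0674 within it and 0.107 in thinned cells.

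Signs also turned on leaving out 1 library. Without day 6, Apcdd1 (0.65, range without 1 library from -2.65) and Lef1 (0.34, from -1.80) became higher in columnar cells than in fibroblasts, and Axin2 (0.36, from -2.46), Dkk2 (0.25, from -6.29), Notum (0.051, from -2.17) and Rnf43 (0.59, from -1.43) became higher late in squamous cells. There Dkk2 gave 1.28 without day 1 replicate 2 and Rnf43 0.04 without day 1 replicate 1. Lef1 in fibroblasts gave 0.25 without day 1 replicate 1 and 0.49 without day 3 (from -1.89), and without day 3 the interaction gave 1.25 for Dkk2 (from -3.85) and 0.46 for Nkd1 (from -1.16). The 8 of 9 genes lower in normal columnar cells became 7 at resolution 2 and 4 without the Mt4 and Spock2 cluster. Of 120 alternative values for late minus early in columnar cells, 82 kept direction and side of the threshold, 35 came to pass it and 3 turned.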

Other observations

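The remaining epithelial classes were not compared but held values. Paneth cells, counted in both day 1 libraries and at day 3 (216, 87 and 76 cells), gave 98.9, 83.2 and 48.9 CPM of Axin2 and 88.6, 125 and 118 CPM of Rnf43. Neutrophils and macrophages of these libraries had 26.2, 60.0 and 145 CPM of Axin2 and 49.7, 109 and 48.3 CPM of Rnf43. Paneth Axin2 at day 3 was thus below that background. Goblet cells gave 31.2, 41.2 and 20.1 CPM of Axin2 in the day 1 libraries and at day 6, and 16.5 CPM in the normal library. The background of Axin2 was 26.2, 60.0 and 4.38 CPM in those tumor libraries. The observed goblet level of day 1 replicate 2 lay below it, with exact intervals that overlapped. Rnf43 in goblet cells stood at 116, 164 and 30.1 CPM in the same tumor libraries and at 38.5 CPM in the normal library. The day 6 and normal levels rest on 15 and 21 UMIs. Their exact intervals, 16.9 to 49.7 and 23.8 to 58.8 CPM, overlapped, so their order was not resolved.

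Dkk2 was counted in endothelial cells of every tumor library, at 75.2 CPM (10 UMIs), 222 CPM (69 UMIs), 99.2 CPM (33 UMIs) and 215 CPM (12 UMIs), from day 1 replicate 1 to day 6. In normal endothelial cells it was counted once (5.58 CPM). At day 6 columnar cells had 10.04 CPM of Dkk2, so the 2 classes stood in the opposite order to day 1. The endothelial level there rested on 3 of 15 cells. At day 3 the observed columnar level was also below the endothelial one. Columnar cells outside the Mt4 and Spock2 cluster had 117, 209, 85.0 and 2.50 CPM from day 1 replicate 1 to day 6. Neutrophils and macrophages had 26.2, 80.6, 36.2 and 1.46 CPM. No test was run on these values.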
